A study of Homo sapiens with 6 samples.

Results

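The zinc finger genes described here are the coding genes of chromosome 19 whose symbol is ZNF followed by a number and at most 1 letter. They were taken from the deposited gene table by symbol and by chromosome sequence, with no use of expression values, and 233 of the 16798 genes in the table qualified. By gene start, 72 lay on the short arm, 19p (under 24 Mb), and 160 on the long arm, 19q (above 28 Mb). The remaining member, ZNF254, starts at 24.03 Mb, between these limits, and enters neither arm. Coordinates are those of the deposited table, on GRCh38. Another 9 genes of the same symbol pattern, ZNF43 and ZNF85 among them, have a map location on chromosome 19 but sit on separate scaffolds of the assembly, so they are not members.

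Most proteins of this family bind DNA through a row of zinc fingers, each folded around a zinc ion held by cysteines and histidines, and many carry a KRAB domain at the other end. The KRAB domain recruits the scaffold protein TRIM28 (KAP1) and, through it, the histone methyltransferase SETDB1, heterochromatin proteins and histone deacetylases, which silence the DNA that the fingers recognize, in many cases a transposable element. The genes arose by repeated tandem duplication, which left them in long clusters of related neighbours on chromosome 19.

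Total RNA of COV434 cells, an immortalized line labelled as granulosa cells with a WT genotype, was sequenced in 6 samples, 3 control and 3 treated with 15 µM 4HC for 24 h. The labels repeat that treatment on all 6 samples, controls included, so the groups rest on the sample titles. 4HC is the active metabolite of the alkylating drug cyclophosphamide (CTX), and the treated samples carry CTX in their titles. Neither the labels nor the study's methods say whether the controls received a vehicle or whether the 3 samples of a group were grown separately, so p-values measure the spread between these samples, which may be technical. The whole-cell RNA cannot tell fewer cells of a type from less RNA per cell.

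The expected counts, which estimate the reads of a gene and need not be whole, summed to between 16133786 and 16702316 per sample. Levels are given as counts scaled to the size of the library by the TMM method (CPM), with the SD over n = 3 samples, and as TPM, which is also divided by transcript length, wherever genes are compared with each other. Of the 16798 genes, 12368 had enough counts for edgeR's quasi-likelihood test, and a gene is called higher or lower when its p-value, adjusted over all 12368 genes by the Benjamini-Hochberg method, is under 0.05. Of 14 granulosa markers, 12 were in the table and 3 exceeded 1 CPM (AMH, HSD17B1 and GJA1), while FOXL2, FSHR, CYP19A1, NR5A1, STAR and INHBB were at or near 0. The 12 summed to 43.8 to 51.8 CPM in control and 44.3 to 46.3 CPM in 4HC. Among markers of other cells, those of endothelium reached at most 0.185 CPM in sum in a sample, those of leukocytes summed to 2.96 to 3.26 CPM in control and 3.00 to 4.65 CPM in 4HC, those of epithelium to 5.79 to 8.001 CPM and 7.24 to 7.65 CPM, and those of fibroblasts, mostly DCN, to 48.7 to 54.3 CPM and 47.0 to 54.7 CPM. The part of any of these cells in the results below was not tested.

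The members were widely but weakly expressed. Their median level over the 6 samples was 4.16 TPM, against 8.36 TPM for all genes of the table, and the middle 50% of members lay between 2.28 and 7.21 TPM. Together the 233 members took between 0.304% and 0.318% of the expected counts of a sample, and between 1516 and 1585 TPM in sum. In control the summed TPM was 1585, 1516 and 1547, and in 4HC it was 1534, 1566 and 1548. The groups overlapped, so the total output of the family was not separated by treatment.

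By TPM, 5 members stood at the top. ZNF146, also known as OZF, a protein made almost wholly of zinc fingers, had the highest mean, 65.8 TPM, followed by ZNF428 at 63.0, ZNF581 at 57.9, ZNF580 at 55.3 and ZNF358 at 37.1 TPM. None of these 5 has an annotated KRAB domain, whereas 196 of the 233 members (84.1%) do. Members without a KRAB domain had a median of 5.96 TPM and those with one 3.99 TPM. ZNF581 and ZNF580 overlap each other, and 23.4% of the exon bases of ZNF581 and 15.1% of those of ZNF580 lie in exons of another gene. For ZNF358 the overlap is 34.4% and for ZNF428, which shares exon bases with SRRM5, it is 27.6%, so the reads of these genes cannot be assigned with certainty.

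At the other end, 11 members were not tested because too few samples had enough counts. ZNF560, ZNF69, ZNF844, ZNF93, ZNF90, ZNF257, ZNF98 and ZNF99 lie on 19p, and ZNF534, ZNF415 and ZNF835 on 19q. ZNF93, which is known to bind and silence LINE-1 elements, had expected counts of 10, 5 and 4 in control and 8, 7 and 4 in 4HC. ZNF98 had 20.1, 13.8 and 10.4 in control and 8.38, 8.04 and 9.21 in 4HC, and ZNF844 had 7.01, 8 and 9 in control and 4.90, 4 and 6.84 in 4HC. In both genes every treated sample lay below every control sample, and no test was made. Over all genes tested this was so for 21.9%. No expected count of ZNF98 was whole, so its reads were divided with other genes in every sample. ZNF99 was at 0 in all but 1 sample, where it had a count of 1. A count of 0 allows up to 3 counts at this depth, which covers counting error only.

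The zinc finger that repeats along these proteins is written in the coding sequence of each gene, and the first complete finger of 2 members described below, with the linker to the next finger, is shown as read from GENCODE release 29. It covers codons 133 to 160 of ZNF331 and codons 18 to 45 of ZNF146, 84 bases each, 5′ to 3′ on the coding strand. Capitals mark the 4 codons for the cysteines and histidines that hold the zinc ion.
ZNF331: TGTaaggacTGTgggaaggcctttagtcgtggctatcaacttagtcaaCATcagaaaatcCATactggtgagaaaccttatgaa
ZNF146: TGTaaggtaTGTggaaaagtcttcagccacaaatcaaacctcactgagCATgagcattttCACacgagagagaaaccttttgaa
The coding sequence of ZNF331 holds 12 such fingers and that of ZNF146 holds 10. Over all members the longest coding transcript held between 0 and 31 fingers, with a median of 12. ZNF91 had 31 and ZNF738 had 0.

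Treatment with 4HC moved individual ZNF genes in both directions while the median of the family stayed close to that of all genes. Of the 222 members tested, 29 were higher in 4HC and 22 were lower, and 171 were not called. Over all genes tested 36.4% were called, 19.2% higher and 17.1% lower, against 22.97% of the members, 13.1% higher and 9.91% lower. The median log2 fold change was 0.003 for the members and 0.005 for all genes tested, and 112 members had a value above 0 and 110 below. The changes were small. The middle 80% of members lay between -0.21 and 0.32 on the log2 scale, and the median size of a called change was 0.30 (0.23 over all genes called). With DESeq2 the members higher and lower numbered 14 and 7, with limma on log2(FPKM + 0.1) they numbered 26 and 12, and without 1 sample the lower count was between 12 (without 4HC replicate 1) and 23, with 14 without control replicate 1.

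No member passed the study's criterion of a fold change of at least 2 with an unadjusted p-value under 0.05, in edgeR's quasi-likelihood test or in DESeq2. Over all genes tested 126 (1.02%) passed it as higher and 16 (0.129%) as lower. The study reported many more genes than this in each direction. Whether its own list of changed genes holds members was not examined. At an unadjusted p-value under 0.05 alone, 35 of the 222 members tested were higher and 27 lower. The share of all genes at that threshold was not counted. At an adjusted p-value under 0.05 the members had 22.97% called, against 36.4% of all genes tested. ZNF506 and ZNF540 came closest to a fold change of 2, with log2 fold changes of 0.99 and 0.98. Leaving out 1 sample at a time gave between 0 and 3 members past the criterion as higher, 3 of them without 4HC replicate 3, and at most 1 as lower, without control replicate 3. The 3 samples of one group lay wholly above or below the 3 of the other for 35 members higher in 4HC and 30 lower. Over all genes tested this was so for 23.4% and 21.9%.

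From 1 CPM upward, the share of members called rose with their level. At a mean of 30 CPM or more 11 of 21 members were called (52.4%), where 45.8% of all genes tested were called. Between 10 and 30 CPM the members called were 23 of 91 (25.3%), against 33.1% of all genes, and between 3 and 10 CPM they were 13 of 81 (16.05%), against 24.9%. Below that the counts were 2 of 20 between 1 and 3 CPM (10.0% against 13.3%) and 2 of 9 under 1 CPM (22.2% against 11.8%). Most members, 172 of the 222, lay between 3 and 30 CPM, where their share was under that of all genes in both ranges. ZNF genes of the same symbol pattern on other chromosomes and scaffolds had 49 of 231 called (21.2%), 24 higher and 25 lower, and the other genes of chromosome 19 had 244 of 694 (35.2%), 143 higher and 101 lower. No test of these shares against each other was made.

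The 8 largest rises and 8 largest falls described from here on were picked among called members whose groups did not overlap. The separation of their samples was thus fixed by the choice. Among the members that rose, ZNF331 had the smallest adjusted p-value. ZNF331 (chr19:53498437-53580269), an imprinted gene that is silenced in several tumour types, measured 35.6, 32.0 and 32.6 CPM in control and 49.7, 48.0 and 48.5 CPM in 4HC. Every treated sample lay above every control sample, and the log2 fold change was 0.54 ± 0.06 (SE), a rise of 45.8% (edgeR adjusted p = 1.54e-11). The rise was uneven over its transcripts. Of 23 transcripts of ZNF331 in the deposited table, 13 had a mean of at least 10 expected counts, and the leading one, with 34.3% of the gene's counts, went from 161 ± 27.5 to 300 ± 19.5 expected counts with no overlap between the groups. The next most abundant, with 14.6%, had 106 ± 9.68 in control and 89.6 ± 14.7 in 4HC, and the groups overlapped. Counts of transcripts are estimates that divide reads among overlapping isoforms, and no test was made on them.

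ZNF540 (chr19:37551374-37614179) had the largest change among members of at least 2 CPM. It measured 2.10, 2.03 and 2.59 CPM in control and 4.22, 4.87 and 4.22 CPM in 4HC, so that every treated sample stood well above the controls. The log2 fold change was 0.98 ± 0.18 (edgeR adjusted p = 1.31e-05). A single transcript held 95.8% of its counts and went from 32.1 ± 11.4 to 72.7 ± 5.51. Of the exon bases of ZNF540, 8.76% are shared with ZNF571-AS1 and ZFP30.

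ZNF677 (chr19:53235381-53257636), whose promoter is often methylated in tumours, went from 2.29 ± 0.48 to 3.95 ± 0.37 CPM, which is a log2 fold change of 0.79 ± 0.19 (edgeR adjusted p = 0.000565). ZNF563 went from 2.12 ± 0.34 to 3.36 ± 0.27 CPM, with a log2 fold change of 0.66. Both had counts of well under 100 per sample and no overlap between the groups. Under DESeq2 ZNF563 had an adjusted p of 0.0564 and was no longer called.

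ZNF441 (chr19:11767000-11784078) had 16.6, 14.7 and 16.9 CPM in control and 21.5, 24.4 and 23.8 CPM in 4HC, on the 1 transcript that the table lists for it. The log2 fold change was 0.53 ± 0.08 (edgeR adjusted p = 1.05e-07). ZNF600 went from 11.7 ± 0.88 to 17.1 ± 0.66 CPM, with a log2 fold change of 0.54. Of the 50-base words of its longest transcript, 18.2% also occur in other genes. ZNF682 went from 7.93 ± 0.72 to 11.9 ± 1.02 CPM and ZNF730 from 6.88 ± 1.41 to 10.3 ± 0.45 CPM, both with a log2 fold change of 0.58. In each of these 4 genes the 3 treated samples lay above the 3 controls. ZNF561, named after its values were seen, was the most abundant member called higher by CPM. It had 90.01 CPM in control and 112 CPM in 4HC, giving a log2 fold change of 0.32.

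The falls were smaller. ZNF556 (chr19:2867335-2888831) had the largest, from 3.94, 3.88 and 3.68 CPM in control to 2.11, 2.47 and 2.51 CPM in 4HC. The samples did not overlap, and the log2 fold change was -0.70 ± 0.18 (edgeR adjusted p = 0.00162). ZNF573 went from 4.57 ± 0.53 to 3.34 ± 0.34 CPM, which is a log2 fold change of -0.45, but its call was lost under DESeq2 (adjusted p = 0.126) and without control replicate 1 or 2 or 4HC replicate 1. The other large falls had log2 fold changes of -0.33 (ZNF583), -0.30 (ZNF627), -0.30 (ZNF737), -0.26 (ZNF134), -0.25 (ZNF254) and -0.24 (ZNF551). ZNF583 had an adjusted p of 0.0713 under DESeq2.

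ZNF627 went from 33.5, 29.6 and 32.3 CPM in control to 23.6, 27.2 and 26.5 CPM in 4HC. Of its counts 92.5% lay on 1 transcript. ZNF146 (chr19:36214602-36238768), the member with the highest TPM, had 137 CPM in each control sample and 115, 121 and 114 CPM in 4HC. Its log2 fold change was -0.23 ± 0.04, a fall of 14.9% (edgeR adjusted p = 2.99e-06). Of its exon bases, 10.8% overlap ZNF565 on the other strand. The 6 transcripts of ZNF146 divided its counts differently from sample to sample, and the leading transcript overlapped between the groups.

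Of the remaining abundant members, ZNF428 went from 33.3 ± 1.29 to 37.2 ± 1.77 CPM (log2 fold change 0.16, edgeR adjusted p = 0.0281). None of its expected counts was whole, which means that its reads were divided with another gene in every sample, and its call was lost under DESeq2 (adjusted p = 0.143) and without control replicate 1 or 4HC replicate 2. ZNF581 had 32.9 ± 0.50 and 34.8 ± 1.67 CPM, ZNF580 had 33.6 ± 3.29 and 30.7 ± 2.31 CPM and ZNF358 had 38.7 ± 2.74 and 41.3 ± 3.50 CPM in control and 4HC. None of these 3 was called, and their groups overlapped.

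Of 12 members with a described role, 11 were tested and 3 were called (27.3%, against 36.4% of all genes tested). The 3 were ZNF331 and ZNF146, given above, and ZNF274. ZNF91, a repressor of SVA retrotransposons and the member with the most fingers, had 25.2 ± 2.46 CPM in control and 26.7 ± 0.41 CPM in 4HC (log2 fold change 0.08, edgeR adjusted p = 0.362). ZNF350 (ZBRK1), a corepressor partner of BRCA1, had 3.14 ± 0.16 and 2.81 ± 0.44 CPM, and ZNF420 (APAK), a negative regulator of p53, had 11.3 ± 0.70 and 10.0 ± 0.79 CPM. ZNF224, a repressor that works with WT1, had 27.1 ± 2.04 and 25.3 ± 0.24 CPM, and 40.5% of its exon bases overlap another gene. ZNF461, first described as a gonadotropin-inducible gene of the ovary, had 6.57 ± 0.38 and 6.68 ± 0.59 CPM. ZNF568, ZNF649 and ZNF555 had log2 fold changes of 0.05, -0.03 and -0.02.

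ZNF274 (chr19:58183061-58213562) brings SETDB1 to the ends of other zinc finger genes. It had 18.9, 18.9 and 21.7 CPM in control and 18.1, 18.6 and 14.6 CPM in 4HC. The treated samples lay below the controls by a narrow margin, and the log2 fold change was -0.21 ± 0.08 (edgeR adjusted p = 0.0352). The call rested on 1 treated sample and 1 control sample, since the adjusted p-value was 0.315 without 4HC replicate 3 and 0.250 without control replicate 3. It was also lost under DESeq2 (adjusted p = 0.155). Of the 2 role genes on scaffolds, ZNF85 rose from 12.5 ± 0.45 to 16.1 ± 1.10 CPM (edgeR adjusted p = 0.000638) and ZNF43 had 33.5 ± 0.55 and 32.4 ± 1.56 CPM and was not called.

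On 19p 64 of the 72 members were tested, of which 14 were higher and 7 lower (32.8% called, against 36.4% of all genes tested). On 19q 157 of 160 were tested, of which 15 were higher and 14 lower (18.5%). Under DESeq2 the higher and lower members numbered 7 and 3 on 19p and 7 and 4 on 19q. The median log2 fold change was 0.07 on 19p, with 40 members above 0 and 24 below, and -0.02 on 19q, with 72 above and 85 below. In each sample, the median deviation of the 19p members from their mean log2 level in control was 0.03, -0.03 and 0.02 in control and -0.02, 0.10 and 0.09 in 4HC. The first 4HC sample lay within the control range and the others above it, so the groups overlapped on 19p. Whether the shift exceeds the spread between samples was not tested. Without control replicate 2 the 19p median was 0.01. The difference between the arms was not tested. The 19q count of lower members was 8 without control replicate 1, control replicate 3 or 4HC replicate 1, and the 19p count of lower members was 4 without 4HC replicate 1 or 2.

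With a new stretch begun wherever neighbouring starts lay more than 1 Mb apart, the members formed 14 stretches, numbered here from the start of 19p, of which 9 held at least 5 tested members and 215 of the 222 between them. Stretch 1, at 2.82 to 2.93 Mb, held ZNF554, which was higher, and ZNF556, which was lower, among 5. Stretch 2, at 7.07 to 9.75 Mb, had 3 higher and 2 lower of 14, led by ZNF846, which went from 4.77 ± 0.48 to 6.26 ± 0.76 CPM (log2 fold change 0.39) and lost its call under DESeq2 (adjusted p = 0.133) and without control replicate 3 or 4HC replicate 1. Stretch 3, at 11.5 to 12.6 Mb, had 5 higher and 1 lower of 23 and the highest median among the 9, 0.11. Stretch 5, at 19.6 to 24.0 Mb, had 5 higher and 3 lower of 22. The shares higher in stretches 1, 2, 3 and 5 were 20%, 21.4%, 21.7% and 22.7%, near the 19.2% of all genes tested. The shares lower were 20%, 14.3%, 4.35% and 13.6%, against 17.1% of all genes tested.

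On 19q, stretch 7, at 34.7 to 35.0 Mb, had none called of 5 in edgeR or DESeq2, nor any at an unadjusted p-value under 0.05. Stretch 8, at 36.2 to 37.7 Mb, had 3 higher and 4 lower of 27, with ZNF540 and ZNF573 as the extremes in each direction. Stretch 10, at 43.5 to 45.1 Mb, had 1 higher and 1 lower of 24, ZNF428 and ZNF229. The shares were 11.1% higher and 14.8% lower in stretch 8 and 4.17% each in stretch 10. Over all genes tested they were 19.2% and 17.1%. ZNF229 went from 17.6 ± 0.75 to 15.1 ± 0.51 CPM and lost its call under DESeq2 (adjusted p = 0.119) and without control replicate 1 or 3 or 4HC replicate 2.

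Stretches 13 and 14 both lie on distal 19q. Stretch 13, at 51.6 to 53.5 Mb, had 7 of 37 tested members higher and 0 lower by edgeR, with 10 higher and 2 lower at an unadjusted p-value under 0.05 and 5 higher and 0 lower by DESeq2. Stretch 14, at 55.5 to 58.5 Mb, had 3 of 58 higher and 8 lower by edgeR, and 1 and 3 by DESeq2. The share higher in stretch 13 was 18.9%, close to the 19.2% of all genes tested. In stretch 14 the shares were 5.17% higher and 13.8% lower, both under those of all genes (19.2% and 17.1%). These 2 stretches were singled out after their values were seen, and the difference between them was not tested. Leaving out 1 sample at a time gave 5 to 7 higher and 0 to 2 lower in stretch 13, with 2 lower without control replicate 2 and 1 lower without 4HC replicate 3. In stretch 14 it gave 1 to 3 higher, with 1 without control replicate 3 or 4HC replicate 1, and 5 to 7 lower, with 5 without control replicate 3, 4HC replicate 1 or 4HC replicate 2.

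Within stretch 13, 5 of the 7 higher members lay among the last 7 members tested. From ZNF677 to ZNF331 there are 7 members whose starts span 263 kb, of which ZNF677, ZNF845, ZNF525, ZNF813 and ZNF331 were higher. This run was picked after its values were seen, and it begins and ends with a called member. The share higher was 18.9% in stretch 13 as a whole and 19.2% over all genes tested. ZNF845 had 13.7, 11.8 and 14.1 CPM in control and 15.8, 18.2 and 14.8 CPM in 4HC. ZNF525 had 9.55, 8.74 and 8.99 CPM in control and 11.7, 11.6 and 12.9 CPM in 4HC. ZNF813 had 11.2, 10.2 and 9.59 CPM in control and 12.6, 13.4 and 13.1 CPM in 4HC. All 3 separated the groups, ZNF845 by the smallest margin. Their log2 fold changes were 0.30, 0.41 and 0.33.

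The other 2 genes of that run, ZNF765 and ZNF761, had log2 fold changes of -0.03 and 0.02 and were not called. ZNF845, ZNF765, ZNF813 and ZNF761 had no whole expected count in any sample. Of the 50-base words of their longest transcripts, 6.75% to 11.0% occur in other genes. Reads of these 4 genes were divided with other genes, so their separate values are uncertain. ZNF331, at the end of the run, shares no such word with other genes, and 5 of its 6 expected counts were whole.

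Neighbours could also move apart. In stretch 14, ZNF530, ZNF134, ZNF211 and ZNF551 start within 82.1 kb of each other. These 4 genes were picked after their values were seen, and over all genes tested 36.4% were called. ZNF530 had 9.55, 8.68 and 8.87 CPM in control and 10.7, 11.3 and 13.1 CPM in 4HC, giving a log2 fold change of 0.37 ± 0.10 (edgeR adjusted p = 0.00313). ZNF134 had 23.5, 24.2 and 25.5 CPM in control and 19.8, 19.5 and 22.04 CPM in 4HC, giving a log2 fold change of -0.26 ± 0.07 (edgeR adjusted p = 0.00296). ZNF551 had 14.4, 14.6 and 15.4 CPM in control and 12.3, 12.7 and 12.8 CPM in 4HC, but its call was lost under DESeq2 (adjusted p = 0.129) and without control replicate 3 or 4HC replicate 1 or 2. In the fit of all samples ZNF530 was higher and ZNF134 and ZNF551 were lower, each with no overlap between the groups, while ZNF211 was not called (log2 fold change -0.11). All 6 expected counts were whole in each of the 4 genes.

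The promoters of the 3 called neighbours are shown because they carry a motif in common while the genes moved in opposite directions. Each sequence runs from 120 bases before to 30 bases after the RefSeq start (GRCh38.p14), 5′ to 3′ on the gene's strand, which is the plus strand for all 3. Capitals mark GGGCGG (Sp1), CCAAT (NF-Y) and CCGGAAG (ETS) on either strand. The windows lie at chr19:57599765-57599914 for ZNF530, chr19:57614122-57614271 for ZNF134 and chr19:57681857-57682006 for ZNF551.
ZNF530: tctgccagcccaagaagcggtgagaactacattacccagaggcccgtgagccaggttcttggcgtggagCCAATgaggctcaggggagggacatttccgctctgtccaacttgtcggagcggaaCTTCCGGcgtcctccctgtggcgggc
ZNF134: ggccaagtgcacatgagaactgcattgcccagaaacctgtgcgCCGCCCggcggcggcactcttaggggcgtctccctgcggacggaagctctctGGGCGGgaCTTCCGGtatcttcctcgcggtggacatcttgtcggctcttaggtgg
ZNF551: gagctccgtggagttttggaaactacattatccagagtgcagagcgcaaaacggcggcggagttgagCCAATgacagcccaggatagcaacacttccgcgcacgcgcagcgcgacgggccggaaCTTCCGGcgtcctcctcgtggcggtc
All 3 hold the ETS motif on the opposite strand close to the start, at 17 bases before it in ZNF134 and at the same place, 4 bases after it, in ZNF530 and ZNF551. Over the whole 300-base windows, aligned end to end, ZNF530 and ZNF551 were 62.1% identical, and ZNF134 was 55.5% identical to ZNF530 and 53.4% to ZNF551. A motif match is a description of the letters and not a measured binding site.

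A second set of promoters comes from stretch 5, where ZNF682 and ZNF730 were higher and ZNF737 and ZNF254 lower. ZNF737 went from 15.7, 14.2 and 13.8 CPM in control to 10.9, 12.6 and 12.1 CPM in 4HC. ZNF254 went from 22.1, 23.6 and 23.2 CPM to 17.1, 20.7 and 20.3 CPM. Both kept the groups apart, and both lost their call under DESeq2 (adjusted p = 0.0581 and 0.0518) and without 4HC replicate 1, and ZNF737 also without control replicate 1. Their promoters and those of ZNF682 and ZNF730 are shown in the same layout, from chr19:20039476-20039625 for ZNF682 (minus strand), chr19:23116905-23117054 for ZNF730 (plus strand), chr19:20565752-20565901 for ZNF737 (minus strand) and chr19:24087067-24087216 for ZNF254 (plus strand). In ZNF730, ZNF737 and ZNF254 the RefSeq start lies inside the gene span of the deposited table, which begins further upstream.
ZNF682: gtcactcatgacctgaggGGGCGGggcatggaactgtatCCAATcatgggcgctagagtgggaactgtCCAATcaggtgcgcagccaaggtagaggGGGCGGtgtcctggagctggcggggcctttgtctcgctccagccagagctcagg
ZNF730: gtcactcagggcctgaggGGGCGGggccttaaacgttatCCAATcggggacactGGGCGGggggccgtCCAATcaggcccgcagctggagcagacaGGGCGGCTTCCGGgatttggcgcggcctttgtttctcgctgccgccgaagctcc
ZNF737: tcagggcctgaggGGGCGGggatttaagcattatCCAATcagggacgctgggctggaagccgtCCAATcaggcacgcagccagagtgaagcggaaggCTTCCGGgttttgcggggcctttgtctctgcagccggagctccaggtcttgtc
ZNF254: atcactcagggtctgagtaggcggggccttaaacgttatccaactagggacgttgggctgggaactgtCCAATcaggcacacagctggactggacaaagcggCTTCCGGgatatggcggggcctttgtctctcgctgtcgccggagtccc
These 4 windows are close relatives, with identities between 64.5% (ZNF682 and ZNF737) and 77.7% (ZNF730 and ZNF254). Each carries CCAAT at 52 bases (ZNF682, ZNF730 and ZNF254) or 57 bases (ZNF737) before the start, and all but ZNF254 carry a second copy further upstream. The ETS motif stands 18 to 23 bases before the start in ZNF730, ZNF737 and ZNF254 and is absent from the ZNF682 window shown.

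Among the 205 members that had a RefSeq promoter window of 300 bases (250 before to 50 after the start), CCGGAAG occurred in 43.9%, against 19.8% of the windows of 10180 tested genes and 10.7% of all 27305 windows. CCAAT occurred in 52.7%, against 37.1% and 35.7%, and GGGCGG in 66.8%, against 70.7% and 44.6%. The 4 longer or rarer motifs searched, TGACGTCA (CRE), GCGCATGCG (NRF1), AAGATGGCG (YY1) and TTTCCCGC (E2F), occurred in 1.46% to 3.90% of member windows. The median GC content was 60.3% in members and 65.3% in tested genes. All motifs were searched on both strands, and no test was made on these shares.

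The share of windows with a motif varied widely over the stretches. CCAAT was in 22 of 22 windows of stretch 5 and in 91.7% of those of stretch 3, 61.1% in stretch 14, and in 28.1% of stretch 13, 24.0% of stretch 8 and 20.0% of stretch 10. The ETS motif was in 62.5% of windows of stretch 13, 61.1% of stretch 14 and 63.6% of stretch 5, and in 8.33% of stretch 3. Of the members called higher, 27 had a window, and 37.0% of these held the ETS motif and 51.9% CCAAT. Of the members called lower, 22 had a window, and 45.5% and 54.5% held them.

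Members with and without a KRAB domain moved in both directions. Of the 187 tested members with an annotated KRAB domain, 23 were higher and 18 lower (21.9%), and their median log2 fold change was 0.01. Of the 35 tested without one, 6 were higher and 4 lower (28.6%), and their median was -0.06. The number of fingers and the log2 fold change had a Spearman rho of 0.0007 across the 222 tested members, which share libraries and in part sequence. Members with 0 to 10 fingers had 23 of 85 called, those with 11 to 14 had 18 of 72 and those with 15 to 31 had 10 of 65. In every finger class, and with or without a KRAB domain, the share called was under the 36.4% of all genes tested. Whether the share differs between these classes was not tested. The level and the log2 fold change had a Spearman rho of -0.18.

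Neighbours along the chromosome were also compared in pairs. Over 207 pairs of tested neighbours no more than 1 Mb apart, the log2 fold changes had a Pearson r of 0.14 and the same sign in 115 pairs (55.6%). Over 685 such pairs of the other genes of chromosome 19, r was 0.04 and 53.6% had the same sign. Pairs overlap by 1 gene and neighbours may share divided reads, so no p-value is given.

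Reads divided among genes limit some of these counts. Of the expected counts of members 78.1% were whole numbers, against 85.5% of those of all genes, and 62 members had fewer than 5 whole counts over the 6 samples. For these 62 a median of 8.22% of the 50-base words of the longest transcript occurred in another gene, against 0.513% for the other 171. The other gene could be a member or any other annotated gene, readthrough genes included. With divided reads 8 were higher and 6 lower of 60 tested (23.3%), and with mostly whole counts 21 were higher and 16 lower of 162 (22.8%). ZNF600 and ZNF556 are among the former. Which genes the reads were divided with was not tested. On 19q the count of higher members fell from 15 to 9 when those with divided reads were left out.

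A list of 29 genes, called corepressors here, was used. It holds machinery that KRAB domains call on and also ZNF445 and ZFP57, which are themselves KRAB zinc finger genes. Of the 29 genes, 28 were in the table and all 28 were tested. Of these, 5 were higher and 8 lower, 15 were not called, and the median log2 fold change was -0.04. The share called was 46.4%, and 27 of the 28 genes had a mean of 30 CPM or more, a level at which 45.8% of all genes tested were called. TRIM28, the scaffold, had 426, 436 and 421 CPM in control and 424, 410 and 403 CPM in 4HC (log2 fold change -0.05, edgeR adjusted p = 0.207). SETDB1, the methyltransferase, had 40.2 ± 1.09 and 38.9 ± 1.43 CPM (edgeR adjusted p = 0.551). The groups overlapped in both genes.

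Among the genes that rose were CBX5, which encodes the heterochromatin protein HP1 alpha (509 ± 7.17 to 579 ± 12.3 CPM), the maintenance DNA methyltransferase DNMT1 (183 ± 4.73 to 210 ± 6.18 CPM), the histone methyltransferase SUV39H1 (30.03 ± 2.12 to 33.7 ± 1.03 CPM) and ZNF445 (39.0 ± 0.90 to 43.1 ± 1.44 CPM), a KRAB zinc finger protein of imprinted regions that is encoded on another chromosome. Among the genes that fell were the histone deacetylase HDAC2 (232 ± 8.69 to 198 ± 7.08 CPM), the other HP1 genes CBX1 (221 ± 3.83 to 204 ± 1.87 CPM) and CBX3 (248 ± 7.32 to 231 ± 5.59 CPM), CHD3, a remodelling subunit of the NuRD complex (289 ± 9.44 to 254 ± 7.72 CPM), the SETDB1 partner ATF7IP (63.7 ± 1.199 to 56.4 ± 1.83 CPM) and PPHLN1 of the HUSH complex (79.2 ± 1.80 to 71.9 ± 2.03 CPM). CBX1 and CBX3 were named after their values were seen, with log2 fold changes of -0.12 and -0.10 (edgeR adjusted p = 0.00546 and 0.0177). Both lost their calls under limma, and CBX3 also without control replicate 1 or 3 or 4HC replicate 1 (edgeR adjusted p = 0.05005, 0.112 and 0.0595). The largest of these changes were HDAC2 at -0.23 and DNMT1 at 0.19 on the log2 scale. SUV39H1 and ZNF445 lost their calls under DESeq2 (adjusted p = 0.153 and 0.150) and each in 4 of the 6 fits that left out 1 sample, and PPHLN1 lost its call without control replicate 2 or 4HC replicate 2. The higher count was 2 without 4HC replicate 1 and 3 without control replicate 1 or 3.

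Of the 51 members called, 22 stayed called in all 6 fits that left out 1 sample, 15 higher and 7 lower. Under every alternative fit 19 were called, 14 higher and 5 lower. How many of the 4497 genes called over the whole table stayed called in these fits was not counted. The setting that keeps only members with mostly whole counts is not a fit of its own and was not counted here. Of the genes described above, these 19 include ZNF540, ZNF677, ZNF682, ZNF730, ZNF331, ZNF600, ZNF441, ZNF530 and ZNF561 among those that rose and ZNF556, ZNF627, ZNF134 and ZNF146 among those that fell. ZNF600, ZNF525, ZNF813 and ZNF556 are among the 19 but have divided reads, so that setting leaves them out.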

How the data were processed

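Total RNA of 3 control and 3 4HC samples of COV434 cells was sequenced. Reads were filtered with SOAPnuke per the labels, and the submitters' processing notes name HISAT2, Bowtie2, RSEM 1.3.1, DESeq2 1.4.5 and GRCh38.p13, with no role or order. The authors deposited expected counts per gene and per transcript without normalization, TPM values, which the authors corrected for transcript length before scaling each sample to one total, and FPKM values, which they corrected for gene length and library size. Fold changes, p-values and q-values of the authors' own comparison were not used, nor was a second gene table with the same values.

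After rounding of the expected counts to integers, all genes were fitted together in edgeR 4.0.16 (R 4.3.3) by its quasi-likelihood test on condition alone, after TMM scaling and filterByExpr. Totals of 16133786 to 16702316 per sample and a biological coefficient of variation of 0.0277 set the precision. The test was tested on simulated data for this comparison, 12282 genes of which 198 changed. It recovered 84.7% of genes changed by 0.5 on the log2 scale and 100% of those changed by 1.5, and 4.69% of its calls were false. The changed genes were drawn from all genes tested, which had a median of 33.7 CPM, against 10.0 CPM for the members tested. Recovery among the members was not measured. The alternatives were DESeq2 1.42.0, its size factors within edgeR, scaling by library size, no filter on low counts, at least 10 counts per sample, a replicate block, limma 3.58.1 on log2 of TPM or FPKM plus a pseudocount of 1 or 0.1, members with mostly whole counts only (at least 5 of 6), and fits that left out 1 sample each.

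Named were 8 members with the largest rises and 8 members with the largest falls, each of at least 2 CPM in either group, with an adjusted p-value under 0.05 and no overlap between groups, the 5 with the highest TPM, the largest called change in each stretch of 5 or more, a list of members with described roles, and up to 8 called genes of the corepressor list with TRIM28 and SETDB1. The members, lists and rules were chosen with earlier results of these data known. Strand, exon overlaps, KRAB annotation and shared 50-base words were matched by symbol, the first 2 and the last from GENCODE release 29 and KRAB from the annotation columns of the deposited table. Fingers were counted in the translated longest coding transcript of GENCODE release 29, since no RefSeq protein was used. The strand column of the deposited table differed from GENCODE for 63 members and was not used. Promoter windows were those of RefSeq on GRCh38.p14 and matched 205 members by symbol. Tables and figures were made in Python 3.11.15 (pandas 2.3.3, matplotlib 3.10.9).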

Additional observations from a re-analysis of the deposited data

How the results depend on the processing

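Under DESeq2 the members higher and lower in 4HC numbered 14 and 7, those of 19p 7 and 3, those of 19q 7 and 4, and 2 corepressor genes were higher. Without the filter 3 corepressor genes were higher. With library size only, 2 members passed a fold change of at least 2 as higher. Limma on log2(TPM + 1) gave 2 corepressor genes higher and 5 lower. Limma on log2(TPM + 0.1) gave 19 members higher, on 19q 9 higher and 9 lower, and 2 corepressor genes higher and 5 lower. Limma on log2(FPKM + 1) gave 14 members lower, 9 of them on 19q, and 2 corepressor genes higher and 3 lower. Limma on log2(FPKM + 0.1) gave 12 members lower, 4 on 19p and 8 on 19q, and 3 corepressor genes higher and 2 lower. With mostly whole counts only, 9 members of 19q were higher, fewer genes being counted. The cause of the other shifts was not tested. Over all genes DESeq2 called 1614 higher and 1564 lower, against 2379 and 2118, and limma on log2(FPKM + 0.1) called 1799 and 937.

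Leaving out 1 sample at a time gave 20 to 28 members higher and 12 to 23 lower, 10 to 15 and 4 to 7 on 19p, 10 to 13 and 8 to 15 on 19q, 0 to 3 and 0 to 1 past a fold change of at least 2, and 2 to 4 and 6 to 7 corepressor genes. The median log2 fold change then lay between -0.02 and 0.02 for the members, 0.012 and 0.11 on 19p, and -0.04 and -0.002 on 19q. These fits have 2 samples in 1 group.

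With the replicate number as a block, 25 members were higher and 19 lower, and the median was 0.002. Of the named genes, ZNF274 alone lost its call (adjusted p = 0.0767). The deviations of same-numbered samples correlated at 0.009, 0.07 and 0.03, and among the 4HC samples replicate 2 alone correlated best with the control of its own number, so the numbers are not taken to pair the samples.

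For 45 named genes under 16 alternatives, 652 of 720 values kept direction and side of the threshold, 64 lost a call (12 under DESeq2), 4 gained one and 0 reversed. Depth limits the 11 members with too few counts for the test. Groups of 3 were too small to test for outlying samples.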
